A study of Homo sapiens with 6 samples.

Results

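The matrix metalloproteinase (MMP), ADAM and ADAMTS genes were examined in a human mesenchymal stem cell (MSC) line that overexpressed SHC4. Members were the protein-coding genes whose symbol is MMP, ADAM or ADAMTS followed only by digits. The annotation holds 61 such genes, of which 7 were not analysed here. The remaining 54 were members, of 28181 genes in all, with 18 MMP, 17 ADAM and 19 ADAMTS genes.

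The cells were UE7T-9, a bone marrow MSC line made immortal by hTERT and the E7 gene of human papillomavirus, cultured in DMEM. UE7T-9 SHC4 carried SHC4, a signaling adaptor of the Shc family, on a lentiviral vector driven by the CMV promoter with puromycin selection. UE7T-9 Cont (below, Cont libraries, against SHC4 libraries) carried the same vector type with GFP according to the methods of the study, while the labels call these samples Nontarget with genotype WT. Each group had 3 libraries, described in the labels as biological replicates 1 to 3, and the series description speaks of clones. Whether the libraries of a group came from separate infections, clones or cultures is not given, so p-values measure the spread between these libraries, which may be technical.

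Total depth ranged from 18144993 to 27721397 reads per library. SHC4 itself stood at a normalized count of 114 ± 51.8 (SD, n = 3) in the Cont libraries and 136347 ± 17966 (n = 3) in the SHC4 libraries (limma adjusted p = 2.09e-06). The MSC markers THY1, ENG and NT5E lay between 2286 and 22365 in all 6 libraries. Of 8 markers of blood, endothelium and epithelium, PTPRC, CDH5 and EPCAM lay between 0 and 6.82, CDH1 and PECAM1 were at up to 38.4, and CD34, CD14 and VWF between 34.4 and 88.3. The summed level of these 8 markers was 183 to 229.6 in the Cont libraries and 175 to 221 in the SHC4 libraries, where CDH5 and EPCAM were at or near 0. THY1 was at 2286 to 7742 and 7512 to 9569.9, and PECAM1 at 7.80 to 12.8 and 9.67 to 38.4. DESeq2 gave THY1 an adjusted p of 0.145 with all libraries and 1.99e-16 without UE7T-9 Cont replicate 1. For NT5E these were 0.396 and 0.00749, and for ENG 0.851 and 0.133. The part of these markers in the results was not tested. UE7T-9 Cont replicate 1 stood apart. Its log2 values correlated better with UE7T-9 SHC4 replicate 1 (Pearson's r = 0.975 across genes) than with UE7T-9 Cont replicate 2 (r = 0.967) or replicate 3 (r = 0.962). It was also nearer to UE7T-9 SHC4 replicates 2 (r = 0.969) and 3 (r = 0.968) than to its own group. Whether replicate 1 of both groups shares a batch is not given in the labels and was not tested. Members whose call changed without this library are therefore given with and without it, and partner genes in part.

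Metalloproteinases cut proteins with a zinc ion held by 3 histidines in the active site. MMPs degrade collagens and other matrix proteins, and are secreted or anchored in the membrane. ADAMs are transmembrane proteins that release growth factors and receptors from the cell surface, and several of them lack the active site and act in adhesion. ADAMTS enzymes are secreted and process procollagen or cut proteoglycans. MSCs are known to remodel the matrix of the bone marrow with such enzymes and to hold them in check with tissue inhibitors of metalloproteinases (TIMPs).

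The coding sequence of the zinc-binding site is shown for the 6 members that DESeq2 called, since this site holds the zinc ion in the members that have it. Each run is 33 coding bases, 5′ to 3′ on the coding strand, from GENCODE 29 transcripts on GRCh38. The codons of the 3 zinc-binding histidines are in capitals.
MMP11 (stromelysin-3, chr22:23780885-23780917, + strand): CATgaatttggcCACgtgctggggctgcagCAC
MMP3 (stromelysin-1, chr11:102840535-102840567, − strand): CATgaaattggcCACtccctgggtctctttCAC
MMP17 (membrane-type, chr12:131841659-131841691, + strand): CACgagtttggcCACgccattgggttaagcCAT
ADAM33 (chr20:3673422-3673454, − strand): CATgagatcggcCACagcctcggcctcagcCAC
ADAMTS4 (chr1:161195613-161196180, − strand, split by an intron): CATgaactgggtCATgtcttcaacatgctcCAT
ADAMTS16 (chr5:5191774-5200147, + strand, split by an intron): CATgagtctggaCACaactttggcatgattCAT
A complete site was found in the transcripts of all 18 MMP and all 19 ADAMTS members and of 11 of the 17 ADAM members. It was not found for ADAM7, ADAM11, ADAM22, ADAM23, ADAM29 and ADAM32. Of the ADAM genes tested, 3 of the 10 with the site and 3 of the 4 without it had a higher mean log2 value in the SHC4 libraries.

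Values are normalized counts, which are gene counts divided by 1 size factor per library. The main test was limma on log2(value + 1) over 23040 genes, all with a mean normalized count of 1 or more, and a call needed a p below 0.05 after Benjamini-Hochberg adjustment. Of the 54 members, 49 were tested (17 MMP, 14 ADAM and 18 ADAMTS). The 5 below the filter were ADAM7, ADAM20, ADAM29, ADAMTS17 and MMP10. ADAMTS16, ADAMTS18, MMP12 and MMP21 passed the filter with a mean below 1 in 1 of the groups.

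limma called 0 of the 49 members, against 0.0651% of all genes tested. At an unadjusted limma p below 0.05 there were 12 members, 8 higher and 4 lower in the SHC4 libraries, against 14.4% of all genes. The 4 lower include ADAMTS16 and MMP12, which passed the filter only through the Cont libraries. edgeR called 0 of 37 members, against 0.0694% of its genes, with 11 at an unadjusted p below 0.05, against 17.6%. DESeq2 on the recovered reads called 6 of 39 members, against 4.14% of its genes. MMP11, ADAM33, ADAMTS4 and MMP17 rose in DESeq2 (2.06% of all genes were called higher), and ADAMTS16 and MMP3 fell (2.08% lower). In the main limma fit, none of these 6 genes passed (adjusted p from 0.0549 to 0.433), although MMP11 and ADAM33 passed in limma under other settings with all 6 libraries. edgeR tested 4 of the 6, not ADAMTS16 and MMP3, and called 0 of them (adjusted p from 0.0871 to 0.174).

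The groups did not overlap in 14 of the 49 members, against 19.3% of all genes tested. UE7T-9 SHC4 lay above UE7T-9 Cont in 8 of them (background 9.13%) and below in 6 (background 10.2%). The 6 below include ADAMTS16 and MMP12, which passed the filter only through the Cont libraries. Across all 49 members, 25 had a higher and 24 a lower mean log2 value in the SHC4 libraries, and the median log2 fold change was 0.07, compared with -0.004 for all genes tested. The median was 0.18 for MMP, -0.07 for ADAM and -0.09 for ADAMTS genes. As a single value compared by an exact permutation test of 3 against 3 libraries, no gene can go below a two-sided p of 0.1.

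**Figure D1:**
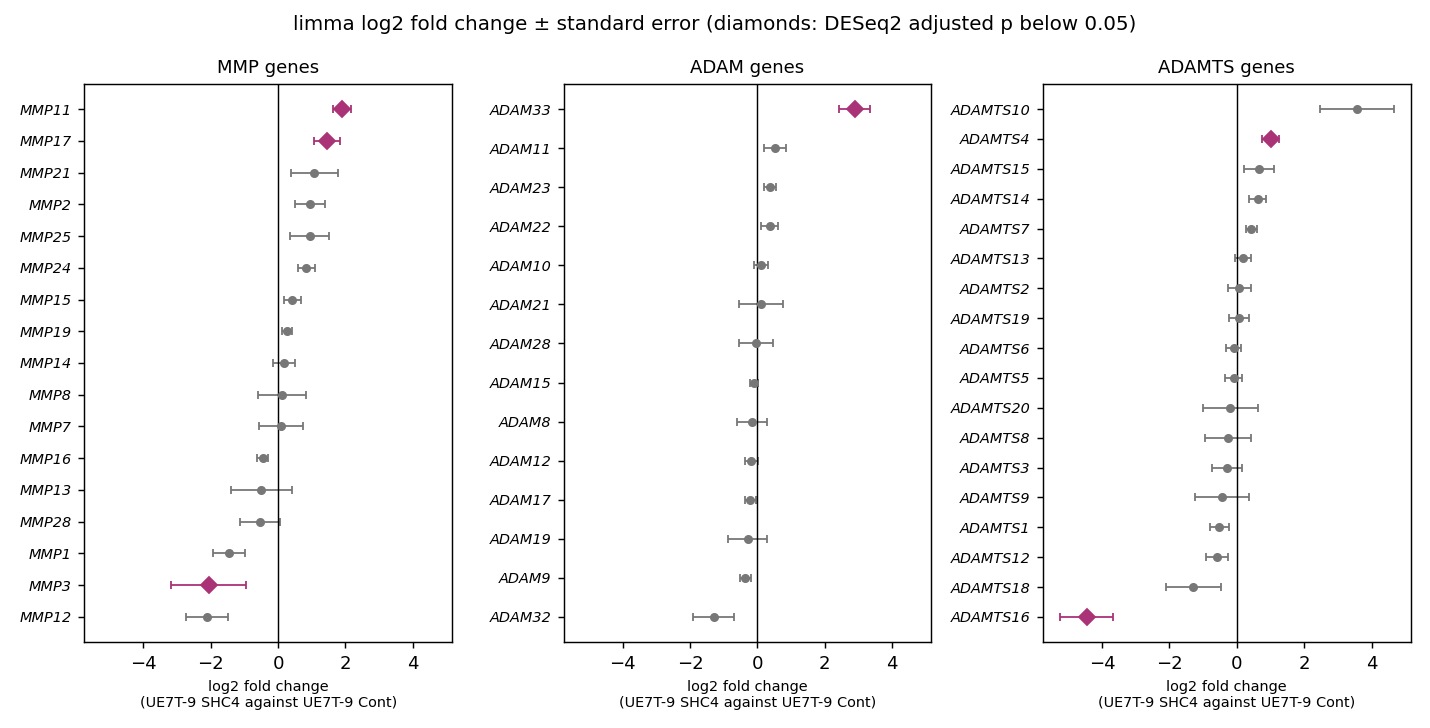
limma log2 fold change (x axis, UE7T-9 SHC4 against UE7T-9 Cont) of the 49 members tested, by family, with bars for the standard error. Diamonds mark the 6 members that DESeq2 called, of which MMP11, MMP17, ADAM33 and ADAMTS4 lie to the right of 0 and MMP3 and ADAMTS16 to the left.

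Among the stromelysins, MMP11 rose and MMP3 fell in DESeq2. MMP11 (ENSG00000099953, chr22:23768226-23784316) encodes stromelysin-3, a secreted enzyme typical of stromal cells and cleaved inside the cell by furin. Its normalized count was 194, 124.8 and 123.9 in replicates 1, 2 and 3 of the Cont libraries and 373.5, 715.8 and 577.6 in those of the SHC4 libraries. Every UE7T-9 SHC4 library lay above every UE7T-9 Cont library, and replicate 1 of each group was the one nearest to the other group. The means were 148 ± 40.2 and 556 ± 172 (SD, n = 3 each), a 3.77-fold difference. In bulk RNA, a change in the share of cells that express a gene and a change in RNA per cell cannot be told apart. MMP11 passed in DESeq2 (log2 fold change 1.91 ± 0.30 (SE), adjusted p = 1.37e-07) and lay just outside the limma threshold (1.89 ± 0.27, adjusted p = 0.0549). The DESeq2 call was kept without any 1 of the 6 libraries (adjusted p from 3.73e-11 to 0.000284). limma called it without UE7T-9 Cont replicate 1 (adjusted p = 0.00317) and without UE7T-9 SHC4 replicate 1 (adjusted p = 0.0398), over a range up to 0.385 without the other libraries. MMP11 shares 218 exon bases with CHCHD10 on the opposite strand, and the library kit does not mark strand. CHCHD10 was at 135 ± 15.6 in the Cont libraries and 204 ± 18.4 in the SHC4 libraries (limma adjusted p = 0.201, DESeq2 adjusted p = 0.0946), and the part of shared reads was not tested.

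MMP3 (ENSG00000149968, chr11:102835801-102843803) encodes stromelysin-1, which cuts proteoglycans and activates other pro-MMPs. It was at 2.92, 117.7 and 66.9 in the Cont libraries and at 8.79, 3.33 and 9.32 in the SHC4 libraries. UE7T-9 Cont replicate 1 was the lowest of all 6 libraries, so the groups overlapped, whereas the other UE7T-9 Cont libraries were the highest. DESeq2 called the difference (log2 fold change -3.14 ± 0.91, adjusted p = 0.0214) and limma did not (-2.06 ± 1.10, adjusted p = 0.433). Without UE7T-9 Cont replicate 1 the limma value was -3.56 ± 0.52 (adjusted p = 0.00703) and that of DESeq2 was -3.71 ± 0.57 (adjusted p = 1.10e-08). The DESeq2 call was lost without UE7T-9 Cont replicate 2 (adjusted p = 0.410) or replicate 3 (0.147) and without UE7T-9 SHC4 replicate 2 (0.261) or replicate 3 (0.0964).

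MMP3 lies in a cluster of 9 MMP genes on chromosome 11 (102520508 to 102955734 on GRCh38, 435 kb), of which 7 were analysed. MMP1, the interstitial collagenase, was the abundant gene of the cluster. Its normalized count was 1251, 4939 and 1304 in the Cont libraries and 868.3, 514.4 and 861.7 in the SHC4 libraries. All UE7T-9 SHC4 libraries lay below all UE7T-9 Cont libraries, and UE7T-9 Cont replicate 2 was far above the rest. The mean was 3.34-fold lower in the SHC4 libraries, with a limma log2 fold change of -1.46 ± 0.47 (adjusted p = 0.224) and a DESeq2 adjusted p of 0.138. Without UE7T-9 Cont replicate 1, DESeq2 called MMP1 (-2.06 ± 0.73, adjusted p = 0.0384) and limma did not (adjusted p = 0.0549). Without UE7T-9 Cont replicate 2, the library far above the rest, the mean was 1.71-fold lower, with log2 fold changes of -0.81 ± 0.24 in limma (adjusted p = 0.442) and -0.77 ± 0.28 in DESeq2 (adjusted p = 0.170). The adjusted p of DESeq2 without 1 library reached 0.606. MMP12, the macrophage elastase, had 10 reads in all in the Cont libraries, at 1.95, 3.53 and 4.92, and 0 reads in the 3 UE7T-9 SHC4 libraries. Its mean in the Cont libraries was 1.21-fold above a floor of 3 reads in each library (a mean of 2.88). The Cont libraries were themselves near this floor, so no size of the difference is given, and limma's adjusted p was 0.200. MMP7, MMP8, MMP10 and MMP13 lay between 0 and 9.42 in all libraries, and no difference between the groups was detectable at this depth.

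**Figure D2:**
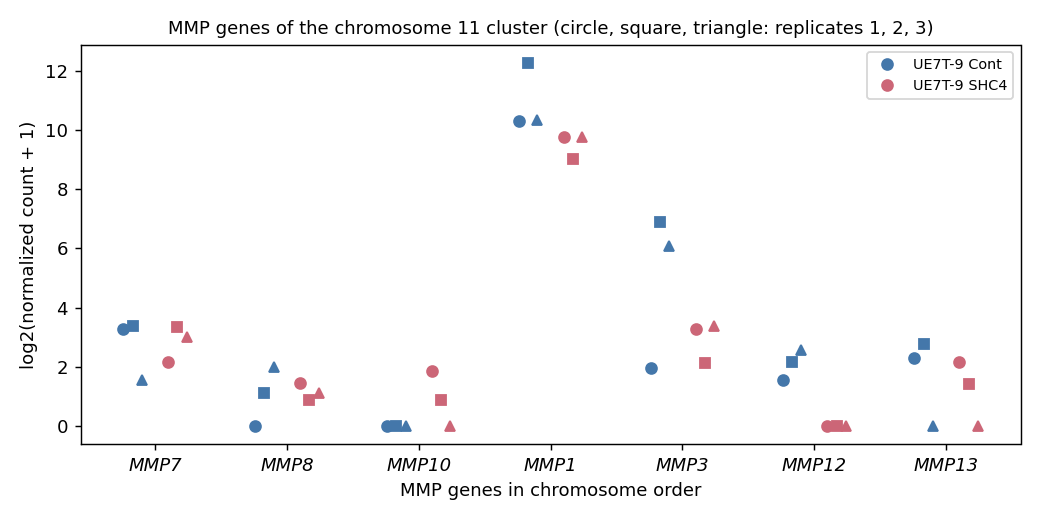
log2(normalized count + 1) (y axis) of the 7 analysed MMP genes of the chromosome 11 cluster, in chromosome order, with circle, square and triangle for replicates 1, 2 and 3. MMP1 is the gene above a value of 8 in all libraries, and for MMP3 the circle of UE7T-9 Cont (replicate 1) is the lowest of the 6 libraries.

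The membrane-type MMPs act at the cell surface. Of the 6 tested, 5 had a higher and 1 (MMP16) a lower mean log2 value in the SHC4 libraries. Their median log2 fold change was 0.63. Over all genes tested, 11440 of 23040 were higher, and the median was -0.004. Among the 5, MMP25 was near the lower end of detection, at 2.35 to 7.80 in the Cont libraries and 6.99 to 15.0 in the SHC4 libraries. MMP14 changed sign in limma without UE7T-9 Cont replicate 3 (-0.10). MMP17 (ENSG00000198598, chr12:131828393-131851783), which is held at the surface by a glycolipid anchor, was at 55.6, 53.0 and 23.6 in the Cont libraries and 79.1, 172 and 110.6 in the SHC4 libraries. The groups did not overlap, and UE7T-9 SHC4 replicate 1 was the nearest to UE7T-9 Cont. The 2.74-fold difference passed in DESeq2 (log2 fold change 1.46 ± 0.42, adjusted p = 0.0212) and not in limma (1.46 ± 0.40, adjusted p = 0.187). limma called it without UE7T-9 Cont replicate 1 (adjusted p = 0.0498). The DESeq2 call was lost without UE7T-9 Cont replicate 2 (adjusted p = 0.0720) or replicate 3 (0.168) and without UE7T-9 SHC4 replicate 2 (0.410) or replicate 3 (0.139).

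MMP24 was at 38.0, 35.3 and 33.4 in the Cont libraries and 62.4, 61.6 and 68.7 in the SHC4 libraries. The replicates were close to each other within each group and the groups did not overlap. The fold was 1.80, with a limma log2 fold change of 0.83 ± 0.25 (adjusted p = 0.206) and a DESeq2 adjusted p of 0.112. MMP24 shares 799 of its 4414 exon bases with MMP24OS on the opposite strand. MMP24OS had 963 ± 68.6 in the Cont libraries and 1441 ± 55.1 in the SHC4 libraries (DESeq2 adjusted p = 0.00334, limma adjusted p = 0.115). Without strand, reads over the shared bases cannot be assigned to either gene. MMP16 was at 420, 391 and 513.5 in the Cont libraries and 277, 370.4 and 317 in the SHC4 libraries, lower in each UE7T-9 SHC4 library than in any UE7T-9 Cont library (limma log2 fold change -0.46 ± 0.17, adjusted p = 0.271). MMP15 also had groups that did not overlap, at 272 to 515.6 in the Cont libraries and 515.9 to 632 in the SHC4 libraries, which almost touched (limma adjusted p = 0.452). MMP19, a secreted MMP outside these classes, was likewise higher in every UE7T-9 SHC4 library, at 347 to 437 against 474 to 495 (limma adjusted p = 0.432).

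MMP14 and MMP2 were the most abundant members per kilobase of exon. MMP14 is the membrane-type enzyme that activates pro-MMP2, and MMP2 is a gelatinase that cuts denatured collagen and basement membrane collagen. Per kilobase, MMP14 had a level of 11364 in the Cont libraries and 12734 in the SHC4 libraries, and MMP2 had 8741 and 18979. The next members in the Cont libraries were ADAM9 at 2189.8, MMP1 at 1268, and ADAMTS1 at 1175 normalized counts per kilobase.

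MMP2 (ENSG00000087245, chr16:55389700-55506691) was counted at 51279, 42374 and 35709 in the Cont libraries and 40235, 144602 and 96039.9 in the SHC4 libraries. UE7T-9 SHC4 replicate 1 lay inside the range of UE7T-9 Cont, while the other UE7T-9 SHC4 libraries lay above it. The log2 fold change was 0.95 ± 0.44 in limma (adjusted p = 0.362) and 1.12 in DESeq2 (adjusted p = 0.0528). Without UE7T-9 SHC4 replicate 1, DESeq2 called MMP2 higher (1.48 ± 0.24, adjusted p = 6.03e-07), and over the 6 fits that each left out 1 library the DESeq2 adjusted p reached 0.593. MMP14 was at 54914, 64326 and 32949.7 in the Cont libraries and 39642, 61465 and 69423 in the SHC4 libraries. The ranges overlapped over most of their width (limma log2 fold change 0.18 ± 0.33, adjusted p = 0.846), and the direction turned to -0.10 without UE7T-9 Cont replicate 3.

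**Figure D3:**
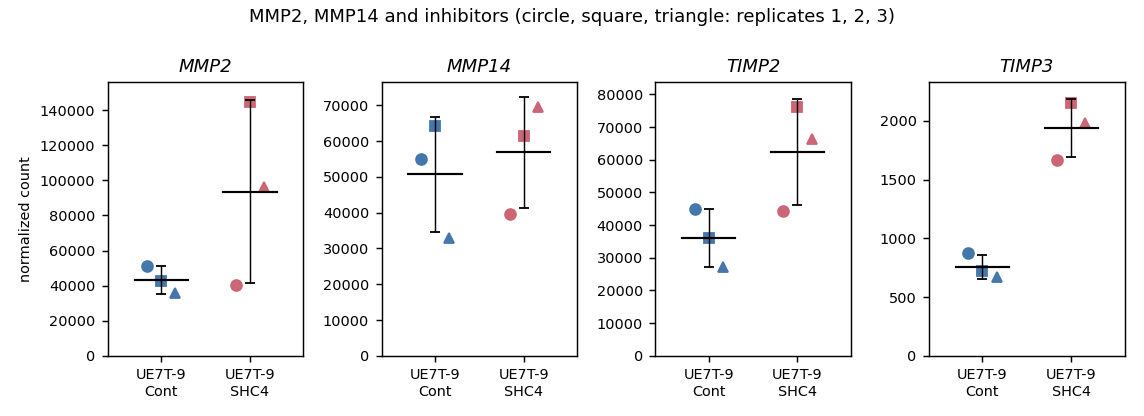
Normalized counts (y axis, from 0) of MMP2, MMP14 and the inhibitors TIMP2 and TIMP3 in each library, with circle, square and triangle for replicates 1, 2 and 3, lines for the mean and bars for the SD. For MMP2 and TIMP2 the circle of UE7T-9 SHC4 lies within the range of UE7T-9 Cont, whereas for TIMP3 all UE7T-9 SHC4 libraries (1667 to 2155) lie above all UE7T-9 Cont libraries (674 to 873).

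Among the ADAM genes, DESeq2 called ADAM33. ADAM33 (ENSG00000149451, chr20:3667965-3682246) encodes a catalytically active ADAM expressed in mesenchymal cells and known as a candidate gene of asthma. Its normalized count was 51.7, 16.5 and 12.8 in the Cont libraries and 163, 202 and 151 in the SHC4 libraries. All UE7T-9 SHC4 libraries lay well above all UE7T-9 Cont libraries, of which replicate 1 was the highest. The means were 27.0 ± 21.5 and 172 ± 26.6, a 6.39-fold difference. DESeq2 gave a log2 fold change of 2.67 ± 0.46 (adjusted p = 3.32e-06), and limma gave 2.88 ± 0.46 (adjusted p = 0.0771). The DESeq2 call was kept without any 1 of the 6 libraries (adjusted p from 7.02e-17 to 0.00351). limma called ADAM33 without UE7T-9 Cont replicate 1 (3.47 ± 0.28, adjusted p = 0.000698) and not without any 1 of the other 5 libraries (adjusted p up to 0.440).

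The abundant ADAM genes differed by less. ADAM9, a widely expressed sheddase, was at 13429.6, 15589 and 16396 in the Cont libraries and 12795, 10803 and 11797 in the SHC4 libraries. The groups did not overlap, and limma gave a log2 fold change of -0.36 ± 0.16 (adjusted p = 0.352). Without UE7T-9 Cont replicate 1, DESeq2 called it lower (-0.44 ± 0.15, adjusted p = 0.0265), where its adjusted p over all 6 such fits reached 0.706. ADAM10, the sheddase of Notch and cadherins, was at 4354 to 6707 in the Cont libraries and 5035 to 6991 in the SHC4 libraries (limma adjusted p = 0.854), and its small difference changed sign without UE7T-9 Cont replicate 1. ADAM17, which releases tumor necrosis factor and ligands of the EGF receptor, was at 1322 ± 237 and 1133 ± 106 (limma adjusted p = 0.581). ADAM15 (2791 to 3512 against 2845 to 3006) and ADAM12 (2263 to 3626 against 2121 to 2987) overlapped between the groups, with limma adjusted p of 0.762 and 0.720.

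ADAM23 and ADAM32 belong to the members without the zinc site. ADAM23, an adhesion protein, was at 1469, 1579 and 1224 in the Cont libraries and 1432, 2073 and 2119 in the SHC4 libraries. UE7T-9 SHC4 replicate 1 again lay within the range of UE7T-9 Cont. limma gave a log2 fold change of 0.38 ± 0.18 (adjusted p = 0.363), and DESeq2 called it without UE7T-9 SHC4 replicate 1 (0.56 ± 0.18, adjusted p = 0.0456; up to 0.803 without another library). ADAM32, known from testis, was near the lower end of detection, at 14.6 to 25.6 in the Cont libraries and 2.33 to 14.1 in the SHC4 libraries, and the groups did not overlap (limma log2 fold change -1.30 ± 0.61, adjusted p = 0.370).

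Among the ADAMTS genes, DESeq2 called ADAMTS4 higher and ADAMTS16 lower. ADAMTS4 (ENSG00000158859, chr1:161184308-161199056) encodes aggrecanase-1, which cuts the cartilage proteoglycan aggrecan. Its normalized count was 154, 114 and 82.6 in the Cont libraries and 193, 225 and 279 in the SHC4 libraries. The groups did not overlap, with replicate 1 of each group nearest to the other. The difference was 1.99-fold and passed in DESeq2 (log2 fold change 0.99 ± 0.29, adjusted p = 0.0235), but not in limma (1.01 ± 0.25, adjusted p = 0.170). limma called it without UE7T-9 Cont replicate 1 (adjusted p = 0.0174). The DESeq2 call was lost without UE7T-9 Cont replicate 2 (adjusted p = 0.170) or replicate 3 (0.189) and without UE7T-9 SHC4 replicate 2 (0.226) or replicate 3 (0.292). Of the 7 proteoglycanases tested by limma, 2 had a higher and 5 a lower mean log2 value, and DESeq2 called 1 (ADAMTS4) of the 5 for which it gave an adjusted p, against 4.14% of its genes. Over all genes tested by limma, 11600 of 23040 were lower. Of the lower proteoglycanases, ADAMTS8, ADAMTS9 and ADAMTS20 lay between 0 and 19.7 in all libraries. ADAMTS20 had a log2 fold change of -0.19 in limma and 0.13 in DESeq2.

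ADAMTS16 (ENSG00000145536, chr5:5140330-5320304) encodes a secreted protease known from kidney and gonad. It was at 7.80, 27.1 and 76.7 in the Cont libraries and at 0, 0.832 and 0 in the SHC4 libraries. These values correspond to 109 reads over the Cont libraries and 1 read over the SHC4 libraries, so every UE7T-9 SHC4 library was below every UE7T-9 Cont library, although the UE7T-9 Cont libraries themselves spread widely. The ratio of the pooled reads, corrected for size factors, was 121 (exact 95% interval 21.2 to 4804, which covers counting error only). DESeq2 called it (log2 fold change -6.78 ± 1.44, adjusted p = 0.000417), also without any 1 of the 6 libraries (adjusted p from 6.77e-06 to 0.0360). limma gave -4.45 ± 0.80 (adjusted p = 0.0961), and called it only without UE7T-9 Cont replicate 1 (adjusted p = 0.00470) among the fits that left out 1 library.

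**Figure D4:**
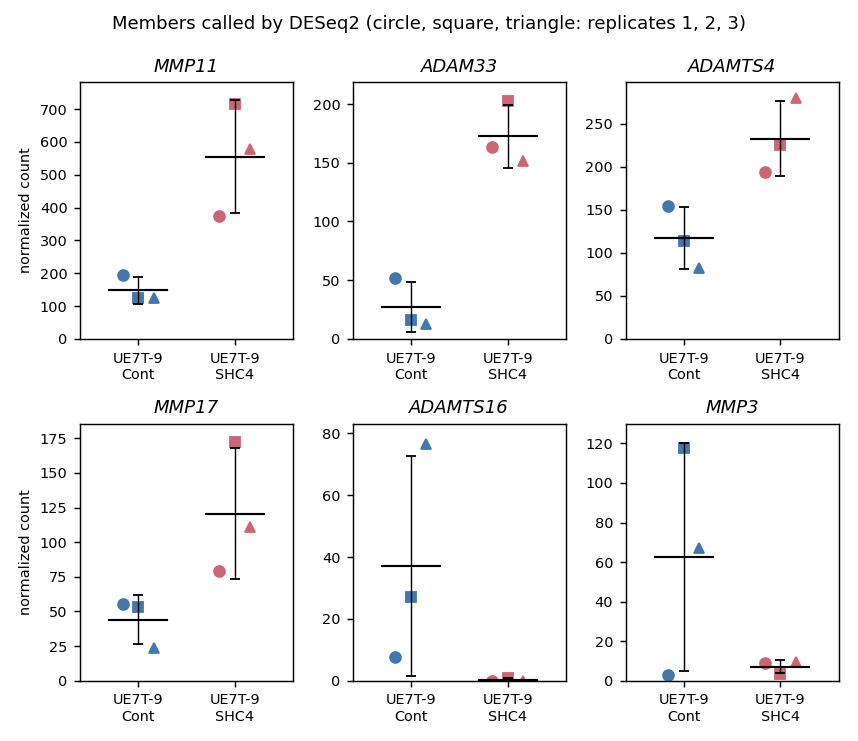
Normalized counts (y axis, from 0) of the 6 members that DESeq2 called, in each library, with circle, square and triangle for replicates 1, 2 and 3, lines for the mean and bars for the SD (n = 3). The groups are separate for MMP11, ADAM33, ADAMTS4, MMP17 and ADAMTS16, and for MMP3 UE7T-9 Cont replicate 1 (2.92) lies below the UE7T-9 SHC4 libraries.

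ADAMTS10, which acts on fibrillin microfibrils, was at 39.97, 0 and 12.8 in the Cont libraries and 129, 88.2 and 79.2 in the SHC4 libraries. The groups did not overlap, but 1 UE7T-9 Cont library was at 0. The means differed 5.62-fold. The log2 fold change was 3.56 ± 1.10 in limma (adjusted p = 0.212) and 2.49 ± 1.38 in DESeq2 (adjusted p = 0.357). Without UE7T-9 Cont replicate 2 limma gave 2.04 ± 0.49 (adjusted p = 0.426). Without UE7T-9 Cont replicate 1 ADAMTS10 was called by limma (4.72 ± 0.89, adjusted p = 0.0183) and DESeq2 (3.93 ± 1.38, adjusted p = 0.0357). DESeq2 also called it without UE7T-9 Cont replicate 2, the library at 0 (1.91 ± 0.52, adjusted p = 0.0280, and up to 0.803 without another library).

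ADAMTS7, which cuts cartilage oligomeric matrix protein, was at 1724, 1242 and 1477 in the Cont libraries and 2282, 2021 and 1707 in the SHC4 libraries. The ranges overlapped slightly (limma log2 fold change 0.44 ± 0.16, adjusted p = 0.271). Its pseudogene ADAMTS7P4 was at 10.9 ± 7.13 and 9.75 ± 0.870, and reads could be split between such copies. ADAMTS14, a procollagen N-proteinase, was at 719, 569 and 428 in the Cont libraries and 667, 1170.3 and 814 in the SHC4 libraries, where replicate 1 lay inside the UE7T-9 Cont range (0.62 ± 0.24, limma adjusted p = 0.291). DESeq2 called both without UE7T-9 Cont replicate 1, with adjusted p of 0.0273 for ADAMTS7 and 0.0195 for ADAMTS14 (up to 0.661 and 0.790 without another library). ADAMTS2, which removes the N-propeptide of collagen I, was at 5195, 2246 and 2069 in the Cont libraries and 4218, 2775 and 2442 in the SHC4 libraries. Replicate 1 was the highest library of each group, and the means differed by less than the spread (limma log2 fold change 0.08 ± 0.34, adjusted p = 0.937). ADAMTS1 was at 5893, 10943 and 8056 against 7529, 3999 and 5975 (-0.51 ± 0.27, limma adjusted p = 0.433).

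A closer look was taken at replicate 1, since UE7T-9 Cont replicate 1 stood apart. UE7T-9 SHC4 replicate 1 correlated with it (r = 0.975) about as well as with UE7T-9 SHC4 replicates 2 (r = 0.978) and 3 (r = 0.975). Of the 26 tested members with a mean of at least 100, replicate 1 was the highest library of both groups in 8 (ADAM12, ADAM19, ADAMTS2, ADAMTS3, ADAMTS6, ADAMTS7, ADAMTS12 and ADAMTS15), against 24.0% of all genes at that level. It was the lowest of both in 2 (ADAM10 and ADAM17), against 22.2%. ADAM19 and ADAMTS15 were picked as examples after their values were seen. ADAM19, a sheddase of neuregulin, was at 768, 193 and 214 in the Cont libraries and 564, 196 and 157 in the SHC4 libraries. Its difference between replicate 1 and the other replicates was larger than the difference between the groups (limma log2 fold change -0.29 ± 0.58, adjusted p = 0.860), which changed sign without UE7T-9 Cont replicate 1 (0.35 in limma, 0.59 in DESeq2) or, in limma, UE7T-9 SHC4 replicate 3 (0.071). ADAMTS15, a proteoglycanase, was at 635, 224 and 149 in the Cont libraries and 543, 418 and 366 in the SHC4 libraries (limma adjusted p = 0.534). Without UE7T-9 Cont replicate 1 the groups were separate, and ADAMTS15 was called by limma (1.25 ± 0.23, adjusted p = 0.0154) and DESeq2 (adjusted p = 0.000127). Without another library neither called it (adjusted p up to 0.882 in limma and 0.994 in DESeq2).

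**Figure D5:**
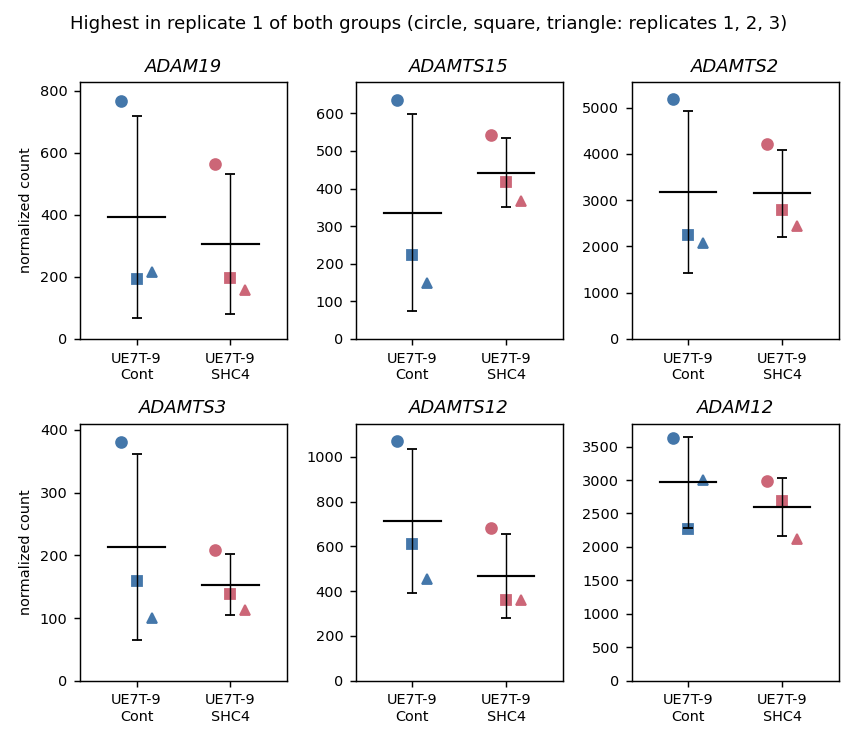
Normalized counts (y axis, from 0) of 6 of the 8 members whose highest library was replicate 1 in both groups, with circle, square and triangle for replicates 1, 2 and 3, lines for the mean and bars for the SD. In each panel the circle is the highest point of its group, as for ADAM19 (768 in the Cont libraries and 564 in the SHC4 libraries).

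When UE7T-9 Cont replicate 1 was left out, the members called went from 0 to 8 of those tested in limma, against 5.68% of all genes in that fit, and from 6 to 12 in DESeq2, against 14.0%. The members called by limma were then ADAM33, ADAMTS4, ADAMTS10, ADAMTS15, ADAMTS16, MMP3, MMP11 and MMP17. They include all 6 that DESeq2 called with every library, but both fits use the same libraries, so this is not independent support. Over all genes, limma calls went from 15 to 1311. Without UE7T-9 SHC4 replicate 1, limma called 1 member (MMP11) and DESeq2 8. Over all genes, limma then called 52 higher and 15 lower, and DESeq2 482 and 366.

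Genes that act on these enzymes were read from the same fit. Of 36 listed inhibitors, activators, binding partners, ADAMTS-like proteins and shed ligands, 34 were tested. limma called 1 higher and 0 lower (background 0.0564% higher and 0.00868% lower), and DESeq2 called 4 higher and 4 lower of 33 (background 2.06% and 2.08%). The inhibitor TIMP3, which binds to the matrix and blocks MMPs, ADAM17 and aggrecanases, was the gene limma called. It was at 873, 719 and 674 in the Cont libraries and 1667, 2155 and 1985.5 in the SHC4 libraries. The groups were separate, and the 2.56-fold difference passed in limma (log2 fold change 1.36 ± 0.15, adjusted p = 0.0161), DESeq2 (adjusted p = 1.75e-10) and edgeR (adjusted p = 0.0344). The limma call was lost without UE7T-9 Cont replicate 2 (adjusted p = 0.156) or replicate 3 (0.0702) and without UE7T-9 SHC4 replicate 2 (0.16) or replicate 3 (0.203), while DESeq2 kept it without any 1 library (adjusted p up to 1.15e-05).

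TIMP2, which inhibits MMPs and takes part in the activation of pro-MMP2 by MMP14, was at 45025, 35954 and 27065 in the Cont libraries and 44360.4, 76273 and 66343 in the SHC4 libraries. As with MMP2, UE7T-9 SHC4 replicate 1 lay within the UE7T-9 Cont range, and the difference passed in DESeq2 (0.79 ± 0.25, adjusted p = 0.0471) and not in limma (adjusted p = 0.281). TIMP1 was at 8301 ± 1751 and 10373 ± 1496 (limma adjusted p = 0.471). The ADAMTS-like matrix proteins ADAMTSL5 (145 ± 33.3 to 303 ± 24.9, DESeq2 adjusted p = 0.000944) and ADAMTSL4 (243 ± 91.4 to 446 ± 41.0, DESeq2 adjusted p = 0.0420) rose in DESeq2. Without 1 library, the DESeq2 adjusted p was at most 0.0428 for ADAMTSL5. TIMP2 kept its call without UE7T-9 Cont replicate 1 or UE7T-9 SHC4 replicate 1 and reached 0.465 without UE7T-9 SHC4 replicate 2 (0.232, 0.300 and 0.305 without UE7T-9 Cont replicates 2 and 3 and UE7T-9 SHC4 replicate 3). ADAMTSL4 kept its call without UE7T-9 Cont replicate 1 and lost it without any 1 of the other 5 libraries (DESeq2 adjusted p from 0.0843 to 0.391).

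The genes of the list that fell in DESeq2 were PCSK5 and 3 ligands of the EGF receptor that ADAM proteases shed. PCSK5, a proprotein convertase, was at 199 ± 12.9 in the Cont libraries and 107 ± 24.0 in the SHC4 libraries (DESeq2 adjusted p = 0.0127). HBEGF was at 277, 839 and 1233 in the Cont libraries and 136, 71.6 and 118 in the SHC4 libraries, 7.22-fold lower (DESeq2 adjusted p = 1.50e-07, limma adjusted p = 0.10). The groups were separate, and UE7T-9 Cont replicate 1 was the lowest of its group. The same held for AREG, at 102, 580.4 and 602 against 44.8, 49.1 and 86.2 (DESeq2 adjusted p = 0.0112), and for TGFA, at 60.4, 131 and 272 against 26.4, 28.3 and 41.9 (DESeq2 adjusted p = 0.000801). HBEGF kept its DESeq2 call without any 1 library (adjusted p up to 0.00524). TGFA lost it without UE7T-9 Cont replicate 3 (DESeq2 adjusted p = 0.0609). PCSK5 lost it without UE7T-9 Cont replicate 2 (DESeq2 adjusted p = 0.173) or replicate 3 (0.0921) or UE7T-9 SHC4 replicate 2 (0.254). AREG lost it without UE7T-9 Cont replicate 3 (DESeq2 adjusted p = 0.183) or UE7T-9 SHC4 replicate 1 (0.0757) or replicate 2 (0.215). Without UE7T-9 Cont replicate 1, limma called HBEGF (adjusted p = 0.000707), AREG (0.000698) and TGFA (0.00650). Without another library it called none of them (adjusted p up to 0.588). EREG, PLAU and BTC had DESeq2 adjusted p of 0.0962, 0.197 and 0.469. DESeq2 called them lower without UE7T-9 Cont replicate 1 (3.09e-07, 0.0219 and 0.0243). Without another library the DESeq2 adjusted p reached 0.733, 0.689 and 0.936.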

How the data were processed

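RNA of 3 UE7T-9 Cont and 3 UE7T-9 SHC4 samples was extracted with RNeasy, prepared with the NEBNext Ultra RNA kit and sequenced on a NovaSeq system. The submitters' processing notes name HISAT2 2.0.5, featureCounts 1.5.0-p3 and DESeq2; the genome build and annotation are not given in the sources used here. The authors deposited 1 signal per gene and library, a normalized count equal to the gene count divided by the size factor of the library. Of these values 100% were whole multiples of 1 read (tolerance 0.01 reads), which gave back the gene counts. A floor of 3 reads equals a normalized count of 2.50 to 3.53. No pair of libraries was a duplicate, and intervals cover counting error only.

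Samples were grouped by their labels. The main test was limma 3.58.1 (R 4.3.3, lmFit, then eBayes, trend on) applied to log2(value + 1) for genes with a mean of at least 1. It was adjusted over all 23040 genes. The added 1 can understate the fold change of low genes, though the value of ADAMTS10 was larger in limma than in DESeq2. DESeq2 1.42.0 and edgeR 4.0.16 (quasi-likelihood) were run on the recovered reads as alternatives, and the fits were tested on simulated data. Other alternatives were library size and TMM scaling, pseudocount 0.1, no filter, a mean of at least 10, an absolute log2 fold change above 1 as a further condition, a replicate block, and leaving out each library. DESeq2 without each library and with a block was added after seeing the data.

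Positions and coding sequences are from GENCODE 29 on GRCh38, matched by Ensembl identifier (100% of 28181). The zinc-binding signature, named by that name alone, was searched in the translated coding sequence. It was widened after seeing which members lacked it. RefSeq promoters were not used here.

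Members and lists were chosen with earlier results of these data known. Named with values are members called by limma or DESeq2, those with an unadjusted limma p below 0.05, those with groups that do not overlap, an absolute log2 fold change above 0.5 and a mean of at least 10, and the 10 with the highest mean. MMP15, MMP19, ADAM17, ADAM19 and ADAMTS15 were added after their values were seen. The partner genes named are those called, and TIMP1, TIMP2 and TIMP3. RECK, EREG, PLAU and BTC were added after their values were seen. A2M, PLAT and TSPAN15 are not named above but were also called in a fit without 1 library. For A2M this was limma without UE7T-9 Cont replicate 1 (higher, adjusted p = 0.0311). Without UE7T-9 SHC4 replicate 1, PLAT was lower in limma (adjusted p = 0.0479) and DESeq2 (7.85e-06), and TSPAN15 in DESeq2 (adjusted p = 0.0302). None of them was called with all libraries.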

Additional observations from a re-analysis of the deposited data

How the results depend on the processing

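The number of members called, 0 in limma, was 6 with DESeq2, 2 with library size scaling (ADAM33 and MMP11), 1 with TMM scaling (MMP11) and 2 with no filter on low values (ADAM33 and MMP11). It stayed at 0 with edgeR, with pseudocount 0.1 and with a mean of at least 10. Over all genes, limma called 13 higher and 2 lower of 23040, and DESeq2 333 and 336 of 16153. Library size scaling called 22 and 6 of 23143, TMM scaling 21 and 4 of 23095, and no filter 33 and 10 of 28181. edgeR called 10 and 1 of 15859, the pseudocount of 0.1 gave 12 and 1 of 23040, and a mean of at least 10 gave 12 and 2 of 15857. Library size scaling moved the median log2 fold change of all genes to -0.10. Leaving out each library gave 0 to 8 in limma and, added after the data were seen, 3 to 12 in DESeq2 (4 without UE7T-9 Cont replicate 2). The calls over all genes moved widely as well. Without UE7T-9 Cont replicate 1 there were 690 higher and 621 lower in limma, and 1213 and 1031 in DESeq2. Without UE7T-9 SHC4 replicate 2 there were 1 and 1 in limma, and 61 and 68 in DESeq2. MMP11, ADAM33 and ADAMTS16 were called in all 6 of these DESeq2 fits. Members whose groups did not overlap, 14 in all, numbered 14 to 25 without each library, where fewer libraries were compared. The share of all genes is not given for these counts, so they are not a result about the members. Partner genes called, 1 in limma, were 8 with DESeq2, 0 to 9 without each library in limma and 3 to 12 in DESeq2 (4 without UE7T-9 SHC4 replicate 2).

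Libraries with the same replicate number deviated from their group means with correlations of 0.148, 0.013 and -0.007, and not every library correlated best with its own number, so the numbers were not used as pairs. The replicate 1 pair had the highest of these correlations, and a batch shared by it was not tested. With the replicate block, limma called 1 member (ADAM33, adjusted p = 0.0498), and DESeq2 5 members, without MMP3 (adjusted p = 0.0893), and 9 partner genes. Over all genes, the block gave 28 higher and 19 lower in limma, and 429 and 358 in DESeq2.

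Of 471 values of the 23 named members under alternatives, 400 kept their direction and their side of the threshold, 57 newly passed it and 14 changed sign. Of 105 values of the 5 members added after their values were seen, 100 kept both, 2 newly passed (ADAMTS15) and 3 changed sign (ADAM19). No value of either tally could lose a call, since the main limma fit called 0 members. A DESeq2 call that was lost without a library therefore counts as kept. Among the 23, the sign changed for ADAM10 without UE7T-9 Cont replicate 1 (-0.097 in limma, with a range up to 0.26 without the other libraries, and -0.080 in DESeq2). It changed for MMP14 without UE7T-9 Cont replicate 3 (-0.10 in limma, with a range up to 0.42, and -0.072 in DESeq2) and without UE7T-9 SHC4 replicate 3 in DESeq2 (-0.0022). For ADAMTS2 it changed with DESeq2 (-0.011), edgeR (-0.0066) and library size scaling (-0.022), and without a library (limma -0.16 to 0.50, with -0.15 and -0.10 among them; DESeq2 -0.28, -0.25 and -0.21). None of these genes, ADAM19 included, was called under any setting, and the cause was not tested. Members below a normalized count of 10, of which 11 were tested, are limited by depth.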

Other observations

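The files also hold antisense and related genes named after members, which the rule leaves out. MMP25-AS1 was at 41.7 ± 9.34 in the Cont libraries and 65.0 ± 6.06 in the SHC4 libraries, higher in every UE7T-9 SHC4 library (limma adjusted p = 0.326, DESeq2 adjusted p = 0.311). ADAMTS9-AS2 was listed at 0 in the 3 UE7T-9 Cont libraries and at 0, 4.99 and 2.33 in the SHC4 libraries (limma adjusted p = 0.442). MMP23B, an MMP gene whose symbol does not end in a digit, was at 3.08 ± 2.54 and 2.40 ± 1.99 (limma adjusted p = 0.913).

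RECK, a membrane-anchored inhibitor of MMPs, was picked after its values were seen. It was at 1404, 1169 and 1001 in the Cont libraries and 1605, 1841 and 1712 in the SHC4 libraries, with separate groups (limma adjusted p = 0.184, DESeq2 adjusted p = 0.0622). It was called without UE7T-9 Cont replicate 1 (DESeq2 adjusted p = 0.000885, limma adjusted p = 0.0207) and not without any 1 of the other 5 libraries (DESeq2 adjusted p from 0.0765 to 0.472, limma adjusted p from 0.178 to 0.588).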
